A study of Mus musculus with 10 samples.

Results

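The genes described here encode 10 enzymes grouped as making, converting or conjugating steroid hormones inside the tissue, out of 45706 gene identifiers counted in mouse uterus. Of these, *Srd5a3* is best known for acting on polyprenol rather than on steroids. The members are *Srd5a1*, *Srd5a2*, *Srd5a3*, *Akr1c18*, *Hsd17b1*, *Hsd17b2*, *Sult1e1*, *Hsd11b1*, *Hsd11b2* and *Cyp11a1*. They were chosen by name with their genotype differences in these libraries already known, so their values are a description, and the adjusted p-values of a fit over all genes give no independent support. All 10 were found by symbol, and all 10 had a mean of at least 1 count per uterus and entered that fit.

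Uterine RNA was sequenced at gestation day (GD) 3.5, shortly before an embryo would implant, in 5 control *Arid1a* f/f females and 5 *Ltf* iCre/+ *Arid1a* f/f females, which are called control and knockout uteri below. *Arid1a* encodes a subunit of the SWI/SNF chromatin remodeling complex. Both genotypes carried the floxed *Arid1a* alleles on a mixed C57BL/6, 129S6/SvEvTac, 129P2/OlaHsd and 129S1/SvImJ background, all females were mature adults mated with wildtype males, and the knockouts alone carried the Cre recombinase, which was inserted in the lactoferrin locus and acts in the endometrial epithelium. Each library came from a part of 1 whole uterus, so stroma, muscle, vessels and immune cells, which the deletion does not target, also contributed RNA. Cre from the lactoferrin locus can also act in neutrophils and other myeloid cells.

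The enzymes of a tissue can change a steroid hormone before it reaches its receptor. Reductases and hydroxysteroid dehydrogenases turn estrogens, progesterone, androgens and glucocorticoids into stronger or weaker ligands, and sulfotransferases make them unable to bind. In the uterus before implantation, estrogen and progesterone set the state of the epithelium and prepare the stroma for decidualization.

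The libraries held 65351817 to 72702411 counts in the controls and 59296537 to 67990486 in the knockouts. The first principal component placed the controls from -38.5 to -15.5 and the knockouts from 9.36 to 65.6, with knockout replicates 5 and 1 farthest out. For the members, the pathway genes and *Lhcgr*, results whose call changes without both of these uteri are given with and without them. Calls of the other marker genes and of *Ltf* were not checked in this way. *Arid1a* itself stood at 192 to 251 CPM (counts scaled to a library of 1000000 counts) in the controls and 165 to 208 CPM in the knockouts, and its difference did not pass the test (log2 fold change -0.20, adjusted p = 0.201, edgeR). *Ltf*, which carries the Cre, was higher in all 5 knockouts (23.6 to 2831 CPM) than in any control (2.22 to 11.7 CPM). With the quasi-likelihood test of edgeR, adjusted after Benjamini and Hochberg at 0.05, 5.19% of the 25146 tested genes were higher in the knockouts and 4.51% were lower. By the same test, 2 of the 10 enzyme genes were higher, *Srd5a2* and *Akr1c18*, and 0 were lower. DESeq2, which called 8.47% of all genes higher and 7.84% lower, added *Hsd17b2* to the higher members and called 1 lower, *Cyp11a1*, which was also the single lower member at an unadjusted p under 0.05 in edgeR. The groups did not overlap, with the knockouts higher, for 5.53% of the tested genes, and with the knockouts lower for 5.16%. Among the members, *Srd5a2* alone had groups that did not overlap. The median log2 fold change of the 10 members was 0.48, with 6 positive and 4 negative values, beside 0.03 over all tested genes.

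Levels of different genes were compared as CPM per kilobase of exon. In the controls *Hsd11b2* was by far the most abundant at a mean of 170 CPM per kb, followed by *Srd5a3* at 6.70 and *Srd5a1* at 2.76 CPM per kb. *Hsd11b1* at 0.633, *Hsd17b1* at 0.567, *Cyp11a1* at 0.448 and *Akr1c18* at 0.276 CPM per kb followed, and their ranges over the 5 controls overlapped between neighbours in this order. *Srd5a2* stood at 0.062 and *Hsd17b2* at 0.004 CPM per kb, and *Sult1e1* had no counts in any control. In the knockouts *Srd5a2* averaged 3.73 CPM per kb, with uteri from 1.80 to 7.50, which overlapped the range of *Srd5a1* (2.12 to 5.13) and lay above the ranges of *Hsd11b1* (0.620 to 1.67) and *Hsd17b1* (0.328 to 0.683).

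**Figure D1:**
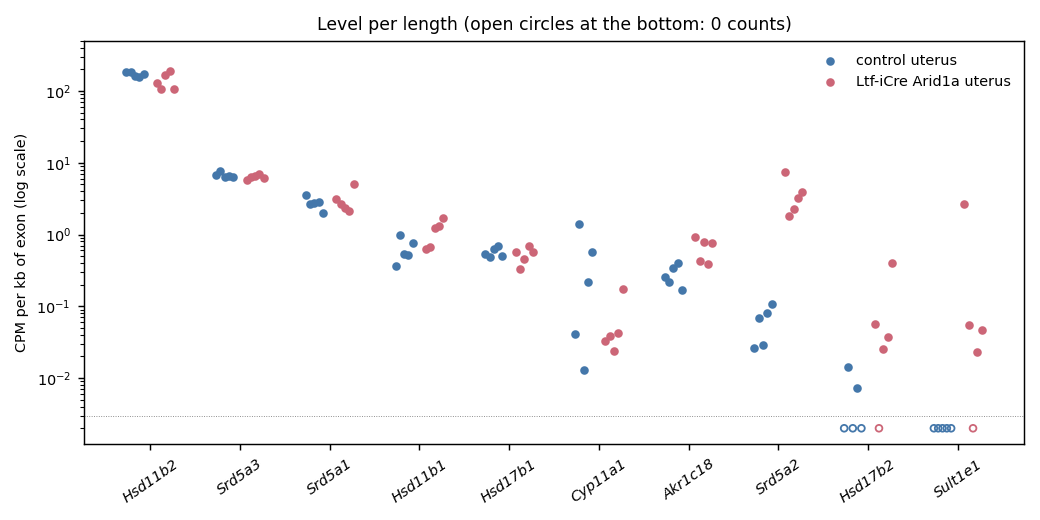
Level of each enzyme gene per uterus in CPM per kilobase of exon (log axis), with genes ordered by their control mean; filled points are uteri and open circles at the bottom are uteri with 0 counts. *Hsd11b2* tops both genotypes, and the 5 knockout points of *Srd5a2* lie between 1.80 and 7.50, above all 5 of its control points.

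The steroid reductases encoded by *Srd5a1* and *Srd5a2* saturate the A ring of progesterone, testosterone and related steroids, which turns testosterone into the more potent dihydrotestosterone and starts the breakdown of progesterone. *Srd5a2* is the isozyme best known from prostate and epididymis. The sequences around the start sites of the 2 members called higher, *Srd5a2* and *Akr1c18*, and of the paralog *Srd5a1* are shown because their letters differ in CpG content and in motifs. Each covers 250 bases before and 50 bases after the RefSeq start site, in build GRCm38.p6 and 5′ to 3′ on the minus strand of the gene, with *Srd5a2* at chr17:74047811-74048110, *Srd5a1* at chr13:69611414-69611713 and *Akr1c18* at chr13:4150597-4150896. Capitals mark the GC box GGGCGG on either strand and AGGTCA, an arm of the estrogen response element.
Srd5a2: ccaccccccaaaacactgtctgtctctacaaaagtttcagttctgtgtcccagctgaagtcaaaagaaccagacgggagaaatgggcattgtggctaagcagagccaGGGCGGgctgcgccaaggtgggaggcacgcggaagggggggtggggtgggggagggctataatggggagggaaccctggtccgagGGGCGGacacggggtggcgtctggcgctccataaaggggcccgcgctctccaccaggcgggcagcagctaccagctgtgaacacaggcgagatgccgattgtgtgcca
Srd5a1: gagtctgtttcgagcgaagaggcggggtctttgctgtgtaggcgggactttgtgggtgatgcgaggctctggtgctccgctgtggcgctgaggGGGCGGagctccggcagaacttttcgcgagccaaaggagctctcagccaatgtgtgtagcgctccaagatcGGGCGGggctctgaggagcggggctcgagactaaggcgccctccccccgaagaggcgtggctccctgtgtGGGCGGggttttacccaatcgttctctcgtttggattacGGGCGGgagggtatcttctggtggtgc
Akr1c18: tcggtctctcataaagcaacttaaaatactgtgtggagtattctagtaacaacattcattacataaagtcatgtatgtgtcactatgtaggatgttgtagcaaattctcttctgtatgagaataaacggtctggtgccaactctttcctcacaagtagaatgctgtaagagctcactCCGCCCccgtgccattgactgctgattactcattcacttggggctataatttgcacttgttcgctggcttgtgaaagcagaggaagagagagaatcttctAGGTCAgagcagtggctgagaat

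The *Srd5a2* window held 15 CpG dinucleotides, more than 65.4% of the 32851 RefSeq promoters of the same length, whose median was 7. Its 2 GC boxes began 143 and 58 bases before the start. The *Srd5a1* window held 24 CpG dinucleotides, above 80.0% of promoters, and 4 GC boxes. The *Akr1c18* window was poorer, with 5 CpG dinucleotides, 1 GC box on the other strand 73 bases before the start and 1 AGGTCA 27 bases after it. The GC box was present on either strand in 35.7% of all promoters and AGGTCA in 16.3%. None of these 3 windows held TATAAA (13.6% of promoters), TGTTCT, an arm of the progesterone and glucocorticoid response element (19.0%), or the AP-1 motif TGANTCA (7.81%). A match describes the letters and is not evidence of binding.

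*Srd5a2* (ENSMUSG00000038541, chr17:74016955-74047916, minus strand, GRCm38) had 3, 8, 3, 9 and 12 counts in control replicates 1 to 5 and 768, 171, 222, 354 and 428 counts in knockout replicates 1 to 5. Scaled to library size, these were 0.042, 0.112, 0.047, 0.128 and 0.172 CPM in the controls and 12.0, 2.89, 3.63, 5.14 and 6.19 CPM in the knockouts. Every knockout uterus was above every control, and replicate 1 was the highest. The mean was 0.100 ± 0.055 CPM in controls and 5.98 ± 3.63 CPM in knockouts (SD, n = 5 each), 59.7-fold higher, with a log2 fold change of 5.87 (SE 0.53, adjusted p = 0.00034, edgeR quasi-likelihood test, Benjamini-Hochberg adjusted over all tested genes). Because the controls held only 35 counts in all, the ratio of summed counts per depth, 59.8, had a 95% interval from counting alone of 42.9 to 86.2. The call held when any 1 uterus was left out (log2 fold change 5.45 to 6.14, adjusted p 0.000375 to 0.0022) and without both knockout replicates 1 and 5 (5.25, adjusted p = 8.26e-05, edgeR). An annotated transcript, CT025731.1, shares 144 exon bases with *Srd5a2* on the same strand and has no row in the deposited counts.

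*Srd5a1* (ENSMUSG00000021594, chr13:69573449-69611442, minus strand), the isozyme found in most tissues, read 10.2, 7.62, 8.01, 8.34 and 5.89 CPM in the controls and 8.95, 7.84, 6.87, 6.17 and 14.9 CPM in the knockouts. The groups overlapped, and only knockout replicate 5 lay above every control. Its log2 fold change was 0.16 (SE 0.24, adjusted p = 0.737, edgeR) and turned to -0.10 without knockout replicate 5. *Srd5a3* (ENSMUSG00000029233, chr5:76140271-76155504, plus strand), which is best known for reducing polyprenol to dolichol for protein glycosylation rather than for acting on steroids, had the smallest coefficient of variation of the members in the knockouts and the second smallest in the controls, with 29.4 to 35.4 CPM in controls and 27.1 to 32.0 CPM in knockouts. Its means were 31.1 ± 2.49 and 29.3 ± 1.87 CPM (log2 fold change -0.09, SE 0.08, adjusted p = 0.573, edgeR). Within a uterus, *Srd5a2* stood at 0.00743 to 0.053 of the level of *Srd5a1* per length in the controls and at 0.668 to 2.44 of it in the knockouts, where it exceeded *Srd5a1* in replicates 1 and 4. *Srd5a1* shares 476 exon bases with Gm17108 on the same strand, a gene with at most 11 counts in any uterus.

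**Figure D2:**
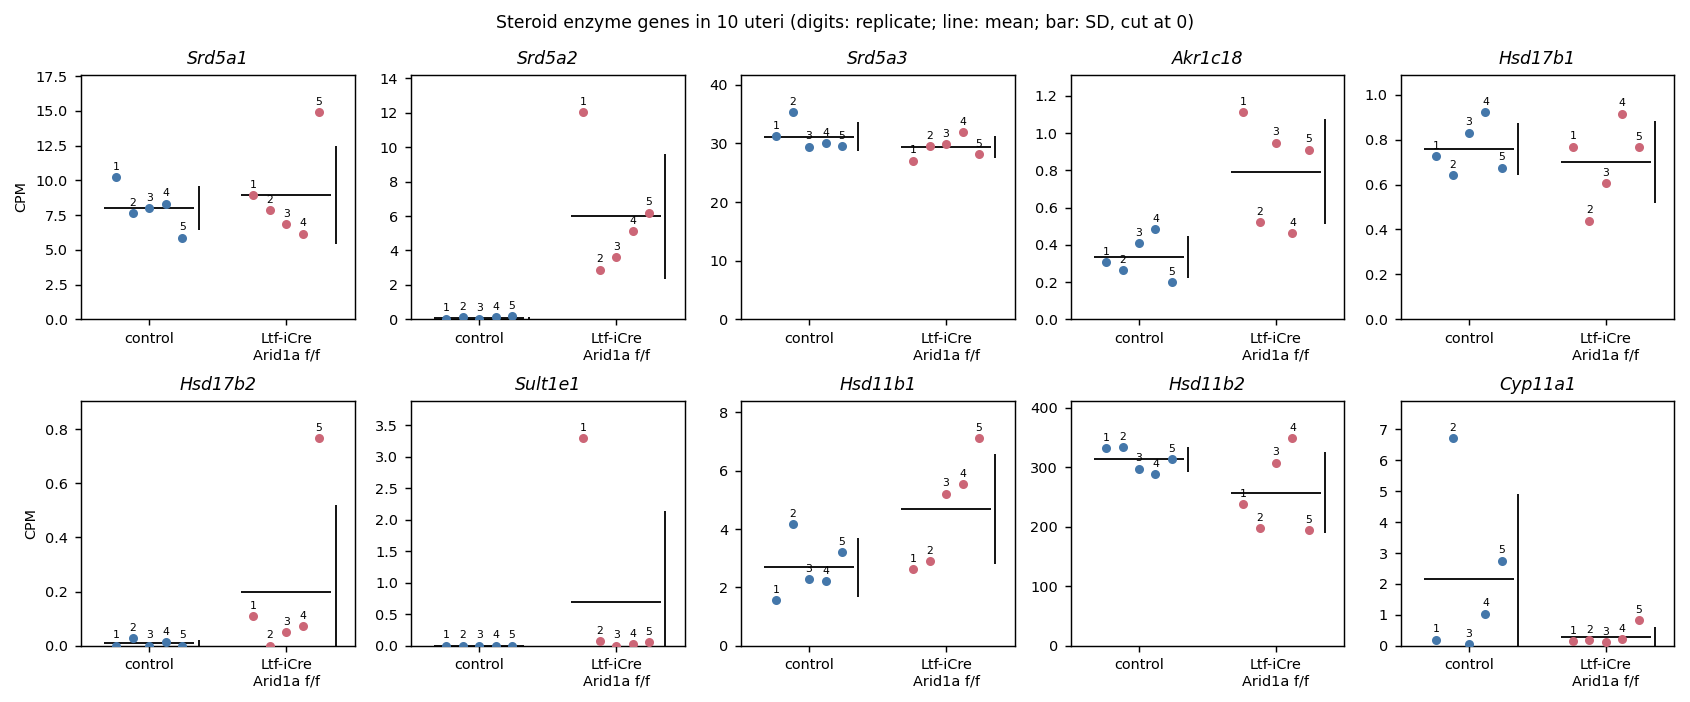
CPM of the 10 enzyme genes in each uterus (vertical axes start at 0 and differ between panels), with digits for the replicate, horizontal lines for the group mean and vertical bars for 1 SD. *Srd5a2* separates the genotypes completely, whereas *Hsd17b2* and *Sult1e1* are carried by knockout replicates 5 (0.767 CPM) and 1 (3.29 CPM).

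*Akr1c18* (ENSMUSG00000021214, chr13:4132615-4150654, minus strand) encodes the 20-alpha-hydroxysteroid dehydrogenase that inactivates progesterone, known for its rise in the corpus luteum before parturition. It had 22, 19, 26, 34 and 14 counts in the controls and 71, 31, 58, 32 and 63 in the knockouts, or 0.308, 0.265, 0.407, 0.483 and 0.201 CPM against 1.11, 0.524, 0.948, 0.465 and 0.911 CPM. In the knockouts, 4 of 5 uteri were above every control, and replicate 4 lay just below the highest control. The mean rose from 0.333 ± 0.113 to 0.792 ± 0.283 CPM, 2.38-fold, with a log2 fold change of 1.25 (SE 0.34, adjusted p = 0.04 in edgeR and 0.00433 in DESeq2). This call was close to the threshold: leaving out 1 uterus gave log2 fold changes of 1.09 to 1.42 and adjusted p-values of 0.0335 to 0.0977, and it was kept in 3 of 10 such fits, those without control replicate 4, knockout replicate 2 or knockout replicate 4. Without both knockout replicates 1 and 5 it was 0.95 (adjusted p = 0.134, edgeR).

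*Akr1c18* lies in a cluster of paralogs on chromosome 13, and reads that match several of them could be missed or assigned to the wrong gene, so their values are uncertain. Of the 8 other aldo-keto reductases listed, 5 were tested and 3 rose, all neighbours of *Akr1c18*, with a list median log2 fold change of 1.16. By the same edgeR test, 5.19% of all tested genes were higher. *Akr1c13* (chr13:4191150-4205596) read 4.13, 4.85, 4.18, 4.96 and 5.24 CPM in the controls and 22.4, 9.48, 9.48, 10.6 and 9.90 CPM in the knockouts (log2 fold change 1.40, SE 0.25, adjusted p = 0.00683, edgeR). *Akr1c19* (chr13:4228700-4252843) went from 15.8 ± 3.45 to 35.3 ± 15.5 CPM (1.16, SE 0.26, adjusted p = 0.0187, edgeR). *Akr1c12* (chr13:4268176-4279433) went from 0.751 ± 0.134 to 3.58 ± 3.22 CPM (2.25, SE 0.51, adjusted p = 0.0198, edgeR). For all 3, every knockout uterus was above every control, and replicate 1 was the highest. With 1 uterus left out, *Akr1c13* passed in 10 of 10 fits, and *Akr1c12* and *Akr1c19* each in 8, failing without control replicate 2 or 3. The fourth neighbour, *Akr1c14* (chr13:4049011-4090688), a 3-alpha-hydroxysteroid dehydrogenase that acts after the steroid reductases, read 41.5 to 61.5 CPM in controls and 39.8 to 152 CPM in knockouts and did not pass (0.82, adjusted p = 0.123, edgeR). *Akr1c6*, *Akr1c20* and *Akr1c21* did not reach the minimum mean count.

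The summed markers of the epithelium were also higher in the knockouts. The summed level of *Epcam*, *Cdh1*, *Krt7*, *Krt8*, *Krt18*, *Krt19* and *Cldn4* was 637 to 840 CPM in controls and 942 to 1961 CPM in knockouts, with 5 of 7 called higher, a median log2 fold change of 0.82 and none near 0 counts. The 5 gland markers summed to 63.0 to 110 CPM in controls and 7.23 to 47.0 CPM in knockouts, and 1 of them, *Foxa2*, was called lower. *Prss28* and *Prss29* were at or near 0 counts in most uteri. The 4 endothelial markers were all called lower, at 595 to 851 CPM in controls and 275 to 410 CPM in knockouts. Called singly in other lists were the T cell genes *Cd3e* (log2 fold change 2.04, adjusted p = 0.00512, edgeR) and *Cd3d* (2.07, adjusted p = 0.00503, edgeR), which were higher, and *Ovgp1* (-2.21) and *Dnah5* (-1.91) of the oviduct list, *Vim* (-0.94) of the stroma list and *Pck1* (-1.77) of the adipose list, which were lower. In the adipose list the other 3 tested genes had positive values, *Adipoq* (5.77), *Cidec* (4.23) and *Plin1* (2.56), and edgeR did not call them. The single positive gene was *Pax8* (0.45) in the oviduct list, beside 3 negative ones, and *Col1a1* (0.33) in the stroma list, beside 5. Neither was called by edgeR. Over all tested genes, edgeR called 5.19% higher and 4.51% lower. The part of these cell types in the differences of *Srd5a2* and of the *Akr1c* genes was not tested, and in whole-uterus RNA a change in the number of cells of a type and a change in the RNA per cell cannot be told apart.

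The 17-beta-hydroxysteroid dehydrogenases work in opposite directions. *Hsd17b1* (ENSMUSG00000019301, chr11:101078411-101080527, plus strand) reduces estrone to the potent estradiol. It had 46 to 65 counts in the controls and 26 to 63 in the knockouts, or 0.759 ± 0.116 against 0.699 ± 0.182 CPM, and the groups overlapped (log2 fold change -0.12, SE 0.25, adjusted p = 0.813, edgeR). *Hsd17b2* (ENSMUSG00000031844, chr8:117701904-117759027, plus strand), which oxidizes estradiol back to estrone and is known as a progesterone-induced gene of the human endometrial epithelium, was barely detected, with 0, 2, 0, 1 and 0 counts in the controls and 7, 0, 3, 5 and 53 in the knockouts. Knockout replicate 5 alone held 53 of the 68 knockout counts. The summed counts per depth were 24.4 times those of the controls (95% counting interval 8.01 to 121), and 6.86 times without knockout replicate 5 (1.94 to 37.0). The gene did not pass in edgeR (adjusted p = 0.0595) but did in DESeq2 (adjusted p = 0.0146), and in edgeR without knockout replicate 2 (adjusted p = 0.0301).

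Knockout replicate 5 also stood apart in neutrophil markers. *Ly6g*, *S100a8*, *S100a9*, *Csf3r* and *Mpo* summed to 769 CPM there, to between 7.20 and 12.1 CPM in the other 4 knockouts and to between 5.08 and 12.7 CPM in the controls. Of these markers *Ly6g* was called higher. It had 109, 22, 10, 17 and 368 counts in knockout replicates 1 to 5 and 4 to 14 counts in the controls. *Mpo* was lowest in knockout replicate 5 (0.231 CPM), and none of these markers was at 0 counts in any uterus. The 5 macrophage markers (340.1 CPM beside 110 to 172 in the other knockouts) and the 5 mast cell markers (37.9 CPM beside 5.58 to 16.8) were also highest in knockout replicate 5. Whether these cells had a part in the *Hsd17b2* counts of that uterus was not tested.

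Of the 10 other 17-beta-hydroxysteroid dehydrogenases, 9 were tested and edgeR called 1 higher, while DESeq2 called 2, adding *Hsd17b7* (log2 fold change 0.69, adjusted p = 0.105 in edgeR and 0.0461 in DESeq2). Over all tested genes, 5.19% were called higher by edgeR and 8.47% by DESeq2. *Hsd17b12*, an enzyme mainly of fatty acid elongation that can also reduce estrone, read 61.8, 65.9, 72.6, 68.7 and 68.1 CPM in the controls and 132, 74.6, 84.1, 81.7 and 126 CPM in the knockouts. All 5 knockouts were above every control, with replicates 1 and 5 the highest (log2 fold change 0.57, SE 0.16, adjusted p = 0.0448, edgeR). The call was kept in 3 of 10 fits with 1 uterus left out, those without knockout replicate 2, 3 or 4, and without both knockout replicates 1 and 5 the log2 fold change was 0.25 (adjusted p = 0.0691, edgeR).

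*Sult1e1* (ENSMUSG00000029272, chr5:87575969-87591594, minus strand) encodes the estrogen sulfotransferase, which makes estradiol unable to bind its receptor. It had 0 counts in all 5 controls, where a count of 0 allows up to 0.0433 CPM, and 210, 4, 0, 2 and 4 counts in the knockouts. The knockout mean of 0.689 CPM was at least 15.9-fold higher than this limit, set at 3 counts per library, but knockout replicate 1 alone held 210 of 220 counts, and the other 4, at 0 to 4 counts, averaged 0.0386 CPM, which is under the limit. It did not pass in edgeR (adjusted p = 0.0999), and DESeq2 gave it no adjusted p. Of the 9 other genes of steroid conjugation and deconjugation, 8 were tested, 1 was higher and 0 were lower by edgeR, while 1 was lower by DESeq2 and at an unadjusted p under 0.05 in edgeR (*Sult1a1*). Over all tested genes, edgeR called 5.19% higher and 4.51% lower, and DESeq2 called 7.84% lower. *Sult2b1*, which sulfates cholesterol and pregnenolone, read 0.517, 0.599, 0.439, 1.02 and 0.732 CPM in controls and 1.63, 1.37, 1.24, 1.29 and 0.926 CPM in knockouts (log2 fold change 0.96, SE 0.27, adjusted p = 0.0457, edgeR). With 1 uterus left out, it passed in 2 of 10 fits, those without control replicate 4 or knockout replicate 5 (adjusted p 0.0294 to 0.105, edgeR), and without both knockout replicates 1 and 5 its log2 fold change was 0.97 (adjusted p = 0.0612, edgeR). *Sult1a1*, the phenol sulfotransferase, read 27.6 to 51.7 CPM in controls and 2.32 to 20.8 CPM in knockouts without overlap, with replicates 1 and 5 the lowest, and did not pass (-1.66, adjusted p = 0.0921, edgeR), although it did in DESeq2 (adjusted p = 0.0487) and in edgeR without both knockout replicates 1 and 5 (-1.03, adjusted p = 0.00815).

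The 11-beta-hydroxysteroid dehydrogenases govern local glucocorticoid. *Hsd11b1* (ENSMUSG00000016194, chr1:193221634-193264075, minus strand), which regenerates active corticosterone, read 1.57, 4.18, 2.27, 2.22 and 3.22 CPM in the controls and 2.63, 2.89, 5.22, 5.55 and 7.12 CPM in the knockouts. Knockout replicates 3, 4 and 5 were above every control, and replicates 1 and 2 lay within the control range. The means of 2.69 ± 1.02 and 4.68 ± 1.90 CPM differed by less than the test required (log2 fold change 0.80, SE 0.33, adjusted p = 0.153 in edgeR and 0.0755 in DESeq2). *Hsd11b1* lies within *Lamb3* and 4930570N18Rik on the opposite strand but shares no exon bases with them.

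*Hsd11b2* (ENSMUSG00000031891, chr8:105518755-105523988, plus strand), which inactivates corticosterone, read 332, 334, 298, 288 and 313 CPM in the controls and 238, 198, 307, 349 and 194 CPM in the knockouts. The controls were tightly grouped, with a coefficient of variation of 6.55%, and the knockouts were spread over 26.6%, with replicates 1, 2 and 5 below every control and replicate 4 above every one. The means were 313 ± 20.5 and 257 ± 68.5 CPM (log2 fold change -0.28, SE 0.16, adjusted p = 0.294, edgeR). The level of *Hsd11b2* per length was 184 to 490 times that of *Hsd11b1* in the controls and 63.1 to 209 times in the knockouts. These ratios overlapped only through control replicate 2 and knockout replicate 1, and the uterus with the lowest ratio was knockout replicate 5. This ratio was formed after the values were seen and was not tested.

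*Cyp11a1* (ENSMUSG00000032323, chr9:58006411-58027023, plus strand), the side-chain cleavage enzyme that makes pregnenolone from cholesterol, varied most among the members with 10 or more counts in a control uterus. It had 14, 482, 4, 73 and 192 counts in the controls and 10, 11, 7, 14 and 57 in the knockouts, or 0.196, 6.72, 0.063, 1.04 and 2.76 CPM against 0.157, 0.186, 0.114, 0.203 and 0.825 CPM. Control replicates 2, 5 and 4 were above every knockout, whereas control replicate 1 lay within the knockout range and control replicate 3 below it. The log2 fold change was -2.84 (SE 1.04, adjusted p = 0.108 in edgeR and 0.0425 in DESeq2). Without both control replicates 2 and 5 it was -0.54 (adjusted p = 0.805, edgeR). *Cyp11a1* shares 145 exon bases with Gm17322 on the same strand, which had at most 26 counts in any uterus.

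The enzyme that acts next, *Hsd3b1*, was high in the same control uteri, with 1, 358, 0, 56 and 140 counts in the controls and 12, 0, 0, 0 and 3 in the knockouts (log2 fold change -5.02, adjusted p = 0.0651, edgeR). In control replicates 2, 4 and 5, picked after their values were seen, there were 0.743, 0.767 and 0.729 *Hsd3b1* counts per *Cyp11a1* count. The ratio was 0.0714 and 0 in control replicates 1 and 3, and 1.2, 0, 0, 0 and 0.0526 in the knockouts. Knockout replicate 5 had 57 *Cyp11a1* counts but 3 *Hsd3b1* counts. *Lhcgr*, the luteinizing hormone receptor, had 9, 79, 7, 8 and 34 counts in the controls and 1, 6, 2, 0 and 2 in the knockouts (-3.41, adjusted p = 0.0373, edgeR), and its highest controls were also replicates 2 and 5. Its call was kept in 4 of 10 fits with 1 uterus left out, and was lost without both control replicates 2 and 5 (-1.69, adjusted p = 0.316, edgeR) and without both knockout replicates 1 and 5 (-3.12, adjusted p = 0.105, edgeR). The 6 ovarian markers, of which 4 were tested and *Lhcgr* alone was called, summed to 12.9 to 18.3 CPM in controls and 8.36 to 21.4 CPM in knockouts. Of the other ovarian markers, *Cyp19a1* and *Fshr* had at most 2 counts in any uterus. The *Fshr* counts were 0, 1, 0, 2 and 1 in the controls and 0 in every knockout. *Foxl2* (9.85 CPM) and *Inha* (4.93 CPM) had the highest control means of the list and, like *Amh*, were not called. *Zp3*, an oocyte gene that was placed in the embryo list, had 0, 11, 0, 1 and 2 counts in the controls and 0 in every knockout, and was not called. The part of ovarian or other steroid-making tissue in the *Cyp11a1* values was not tested. *Star*, which brings cholesterol into mitochondria, read 6.88, 8.89, 3.93, 4.16 and 4.81 CPM in the controls and 2.42 to 6.22 CPM in the knockouts (-0.25, adjusted p = 0.676, edgeR). Control replicate 2 was again the highest control and replicate 3 the lowest, but replicate 5 was below replicate 1 and the spread was smaller. *Hsd3b2*, *Hsd3b3* and *Hsd3b6* had 0 counts in every uterus. Of the 15 steroid synthesis genes listed beside *Cyp11a1*, 10 were tested and 0 were called in either direction by edgeR or DESeq2. Over all tested genes, edgeR called 5.19% higher and 4.51% lower, and DESeq2 called 8.47% and 7.84%. At an unadjusted p under 0.05 in edgeR, 1 was higher (*Cyp21a1*) and 1 lower (*Hsd3b1*).

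**Figure D3:**
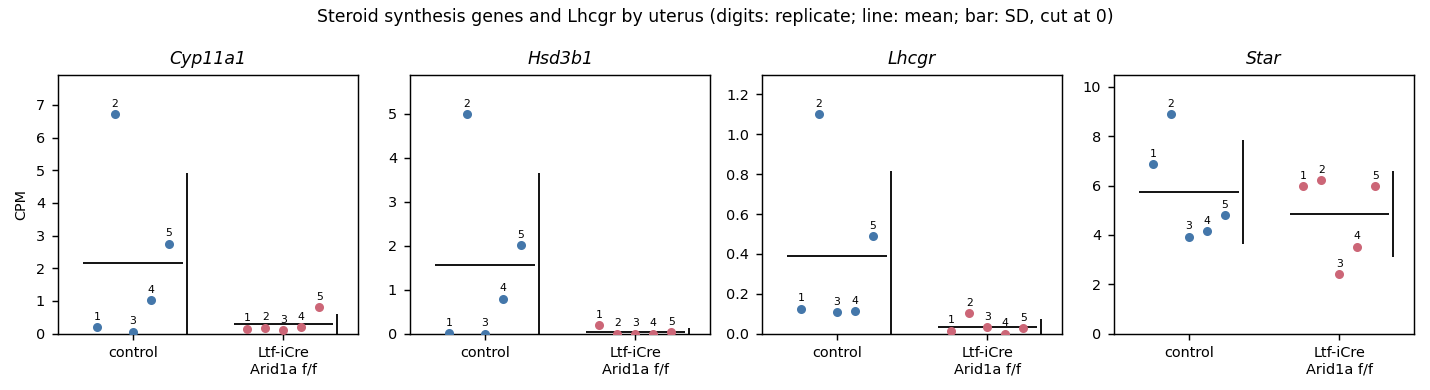
CPM of *Cyp11a1*, *Hsd3b1*, *Lhcgr* and *Star* in each uterus (axes start at 0; digits give the replicate, lines the mean, bars 1 SD). Control replicates 2 and 5 are the highest uteri for *Cyp11a1*, *Hsd3b1* and *Lhcgr*, whereas *Star* is at 2.42 CPM or more in every uterus.

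The hormones handled by these enzymes act through receptors, and 11 receptors and chaperones were listed. The edgeR test called 1 higher and 2 lower, beside 5.19% higher and 4.51% lower over all tested genes. *Esr2*, the estrogen receptor beta, read 0.168, 0.376, 0.094, 0.213 and 0.115 CPM in the controls and 4.33, 1.88, 1.77, 1.39 and 0.955 CPM in the knockouts, so every knockout was above every control (log2 fold change 3.40, SE 0.50, adjusted p = 0.00273, edgeR). The predominant uterine estrogen receptor *Esr1* read 540 ± 52.8 CPM in controls and 456 ± 116 CPM in knockouts (-0.25, adjusted p = 0.378, edgeR). Knockout replicates 2, 3 and 4, at 432, 353 and 341 CPM, were below every control, whereas replicates 1 and 5, at 590 and 561 CPM, were within the control range, and without both of these *Esr1* was called lower (-0.53, adjusted p = 0.018, edgeR). The progesterone receptor *Pgr* read 314 ± 57.9 and 339 ± 64.6 CPM (0.11, adjusted p = 0.722, edgeR). *Fkbp5*, a chaperone of steroid receptors that glucocorticoids and progesterone induce, fell in every knockout, from 54.1 to 72.6 CPM in the controls to 18.2 to 51.0 CPM in the knockouts (-0.87, SE 0.23, adjusted p = 0.0379, edgeR). Its call was kept in 2 of 10 fits with 1 uterus left out, those without knockout replicate 2 or 5 (adjusted p 0.0126 to 0.0892 over the 10, edgeR). *Pgrmc2*, a membrane-associated heme-binding protein of the progesterone receptor membrane component family, read 109 to 138 CPM in controls and 71.2 to 98.6 CPM in knockouts (-0.46, SE 0.10, adjusted p = 0.0188, edgeR), and passed in all 10 such fits, as did *Esr2*.

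The steroid hydroxylases and cofactor enzymes gave 0 calls in either direction among 7 tested genes by edgeR. At an unadjusted p under 0.05 in edgeR 2 were higher and 2 lower, and DESeq2 called 2 higher (*Cyp3a13*, *Dhrs9*) and 1 lower (*Cyp1a1*), genes named here after their values were seen. *Cyp3a13* passed in edgeR without both knockout replicates 1 and 5 (log2 fold change 2.23, adjusted p = 0.00225). *Cyp1b1*, which hydroxylates estradiol, was lower in every knockout (0.627 to 54.1 CPM) than in any control (63.2 to 109 CPM) but spread widely among them (-1.79, adjusted p = 0.165, edgeR), and it was called lower without both knockout replicates 1 and 5 (-1.12, adjusted p = 0.0201, edgeR). Over all 6 lists, 60 genes were named, 59 were in the counts and 50 were tested. Of these, 6 were higher, 2 lower and 42 not called, beside 5.19% higher and 4.51% lower over all tested genes. Their median log2 fold change was 0.07.

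**Figure D4:**
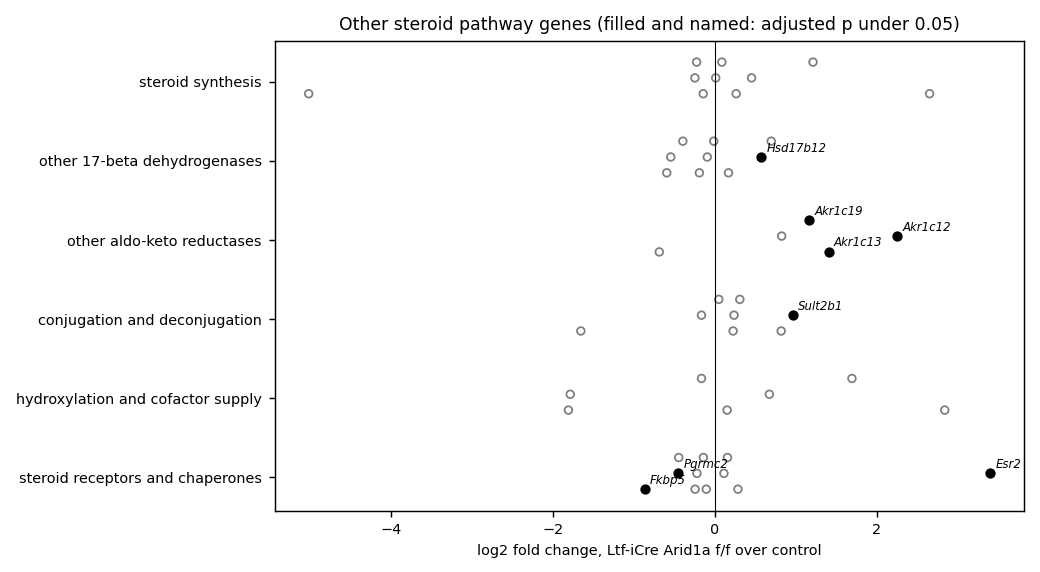
Fitted log2 fold change (knockout over control) of the 50 tested steroid pathway genes outside the 10 members, by list; filled named points passed the test at an adjusted p of 0.05. The 3 *Akr1c* genes and *Esr2* lie at 1.16 or more, and the largest negative value, -5.02, is the uncalled *Hsd3b1*.

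Spread also differed between members. For the 14591 genes with a mean of at least 100 counts, the median coefficient of variation was 11.2% among controls and 16.6% among knockouts. *Srd5a3* was below both, at 7.99% and 6.37%. *Srd5a1* (19.5% and 39.1%), *Hsd11b1* (37.9% and 40.5%) and *Srd5a2* (55.4% and 60.6%) were above both. *Cyp11a1*, with fewer counts on average, reached 129% in the controls. The highest knockout was replicate 1 for *Srd5a2*, *Akr1c18* and *Sult1e1*, replicate 5 for *Srd5a1*, *Hsd17b2*, *Hsd11b1* and *Cyp11a1*, and replicate 4 for *Srd5a3*, *Hsd17b1* and *Hsd11b2*, so no single uterus was high for all members.

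The genes most like *Srd5a2*, *Srd5a1*, *Hsd11b1* and *Hsd11b2* in their deviations from the genotype means over the 10 uteri were sought among 14590 genes. They were *Vta1* for *Srd5a2* (r = 0.98), *Unc13b* for *Srd5a1* (r = 0.96), *Limd2* for *Hsd11b1* (r = 0.96) and *Zdhhc4* for *Hsd11b2* (r = 0.95). Each is the highest of many correlations over 10 points that share library scaling, and these 4 members each had a different gene.

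**Figure D5:**
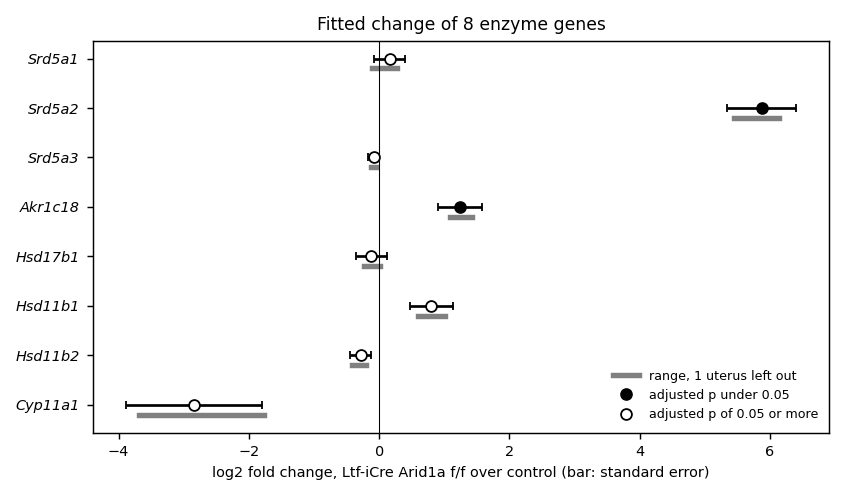
Fitted log2 fold change of 8 enzyme genes (knockout over control, points), with black bars for 1 standard error, gray bars for the range when 1 uterus is left out, and filled points for an adjusted p under 0.05. *Hsd17b2* and *Sult1e1* are not drawn because their controls were at or near 0 counts; *Srd5a2* at 5.87 and *Akr1c18* at 1.25 are filled, and the gray bars of *Srd5a1* and *Hsd17b1* cross 0.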

How the data were processed

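The authors sequenced 50-base paired-end mRNA libraries of 10 uteri. Per the labels they used cutadapt 1.18, Trim Galore 0.6.4, FastQC 0.11.9 and STAR 2.7.3a on GRCm38, and they deposited raw counts per gene and uterus, with no normalization. The sources used here give neither the annotation release nor whether strand was used in counting. STAR's gene counts leave out reads that match several places, which lowers genes with close paralogs, and reads of overlapping genes may be lost or shared.

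Samples were grouped by the genotype in their titles. Each library is 1 mouse, per the study's methods. No 2 libraries were duplicates (chi-square of at least 28.7 per gene within a genotype). Symbols and coordinates came from GENCODE vM21 (GRCm38), which held 45143 of the 45706 identifiers. Sequences came from RefSeq (GRCm38.p6), which had entries for 7 of the 10 members and none used here for *Hsd17b1*, *Hsd17b2* and *Hsd11b2*. The 25146 genes that averaged 1 count or more were fitted in edgeR 4.0.16 (R 4.3.3) with TMM scaling, the quasi-likelihood test, genotype as the only factor and Benjamini-Hochberg adjustment over all tested genes at 0.05. CPM use TMM library sizes. Ratios of summed counts carry exact 95% intervals, which cover counting error only, and a library with 0 counts was given a limit of 3 counts. DESeq2 1.42.0, other size factors, other filters, a replicate block and leaving out uteri were alternatives, and leaving out 2 uteri together was added after seeing the data. The scripts were tested on simulated data. Drawings used matplotlib 3.10.9.

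The members and the gene lists were chosen with earlier results of these data known. Named were all members, every pathway gene that passed the test, *Esr1*, *Pgr*, *Star* and *Hsd3b1* to *Hsd3b6* whatever they showed, markers beside a member, and the single gene most alike to each member with a mean of at least 100 counts, of which 1 is not reported here. Chosen after their values were seen were *Akr1c14*, *Hsd17b7*, *Sult1a1*, *Cyp1a1*, *Cyp1b1*, *Cyp3a13*, *Cyp21a1*, *Dhrs9* and the markers *Zp3*, *Adipoq*, *Cidec*, *Plin1*, *Pax8* and *Col1a1*, which did not pass in edgeR, and the marker genes named for their calls. Of the pathway lists *Sts* was not matched and *Hsd17b8* was matched as *H2-Ke6*. The other marker lists gave these summed CPM ranges, controls first: stroma 9923 to 15020 and 8656 to 13697, myometrium 4976 to 9235 and 2509 to 7186, macrophage 73.4 to 146 and 110 to 340.1, NK cell 28.3 to 61.5 and 13.3 to 52.8, T cell 9.71 to 13.2 and 14.7 to 33.2, mast cell 3.49 to 19.0 and 5.58 to 37.9, oviduct 53.9 to 73.7 and 40.8 to 61.7, adipose tissue 4.29 to 8.76 and 0.911 to 4.11, and preimplantation embryo, *Zp3* included, 0.0979 to 0.418 and 0.0157 to 0.118. Most of the adipose sum was *Pck1*, at 4.28 to 8.74 CPM in controls and 0.897 to 2.89 CPM in knockouts.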

Additional observations from a re-analysis of the deposited data

Results flagged for a closer look

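In 8 of 43 groups of 5 uteri, over 22 genes, the highest uterus stood apart by more than Dixon's 95% critical value of 0.71. The measure was the gap to its neighbour over the whole range. That value assumes normal, independent data, whereas these CPM were skewed, some groups held few counts and all came from the same uteri. The number of groups that chance would set apart is therefore not known. All 8 were in the knockouts, and the uterus was replicate 1 or replicate 5, the pair that also lay farthest out on the first principal component. The screen did not cover every gene named above. *Dhrs9*, which was not screened, reached 5.78 CPM in control replicate 4 against 1.88 CPM in the next control. Among the members, *Sult1e1* reached 3.29 CPM in knockout replicate 1 against 0.0676 CPM in the next uterus, *Hsd17b2* reached 0.767 CPM in knockout replicate 5 against 0.11 CPM, and *Cyp11a1* reached 0.825 CPM in knockout replicate 5 against 0.203 CPM. In knockout replicate 1, *Akr1c12* was at 9.16 CPM (next 3.11), *Akr1c13* at 22.4 CPM (next 10.6), *Akr1c19* at 62.3 CPM (next 33.2), *Esr2* at 4.33 CPM (next 1.88) and *Hsd3b1* at 0.188 CPM (next 0.0434). The *Hsd3b1* value is 12 counts. *Srd5a2*, whose highest uterus was also knockout replicate 1, and *Akr1c18* were not among the groups set apart.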

How the results depend on the processing

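*Srd5a2* passed under every alternative run (DESeq2, other size factors, 2 other filters, the replicate block, each uterus left out and both pairs left out). The members called higher numbered 2, and 1 to 3 with 1 uterus left out: *Akr1c18* was lost without control replicate 1, 2, 3 or 5 or knockout replicate 1, 3 or 5, and *Hsd17b2* was gained without knockout replicate 2. They numbered 1 without both knockout replicates 1 and 5 and 1 without both control replicates 2 and 5. DESeq2 called 1 member lower, *Cyp11a1*, beside 0 by edgeR. Of the other pathway genes, 6 were higher and 2 lower, and leaving out 1 uterus gave 2 to 6 and 1 to 3, lowest for the higher genes without control replicate 2 or 3. DESeq2 called 9 higher, adding *Cyp3a13*, *Dhrs9* and *Hsd17b7*, and 4 lower, 5 were lower without both knockout replicates 1 and 5, and without both control replicates 2 and 5 there were 1 higher, *Esr2*, and 0 lower. The cause was not tested, though fewer samples entered these fits.

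With 1 uterus left out, the log2 fold change of *Srd5a1* ranged from -0.10 (without knockout replicate 5) to 0.27, and it was -0.20 without both knockout replicates 1 and 5; that of *Hsd17b1* ranged from -0.23 to 0.0069 (without knockout replicate 2), and *Pgr* turned to -0.038 without both knockout replicates 1 and 5 and -0.029 without both control replicates 2 and 5, with 0 of these values past the threshold. No pairing of the uteri by replicate number was evident: same-numbered uteri had correlations of their deviations of -0.16 to 0.22, and only control replicate 2 correlated best with its own number. Such correlations cannot exclude shared litters or batches, and the study compared littermates where it could. With the replicate block the members higher were still 2, with *Sult1e1* (adjusted p = 0.0373, edgeR) in place of *Akr1c18* (0.0966), and other pathway genes higher fell to 3, losing *Akr1c19*, *Hsd17b12* and *Sult2b1*. *Sult2b1* was also lost with no filter. *Hsd17b2* and *Sult1e1* had no value under the stricter filter, nor *Sult1e1* in DESeq2 or without both knockout replicates 1 and 5. Depth limits the genes with few counts, *Akr1c18*, *Hsd17b2* and *Sult1e1*.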
